A study of Mus musculus with 141 samples.

Results

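The 10 complement genes C1qa, C1qb, C1qc, C1ra, C1s1, C2, C3, C4b, C6 and C7 were described in inguinal white adipose tissue (iWAT) of inbred mice. They were taken by symbol, and all 10 were found among the 36558 genes of the count and TPM tables. The libraries belong to the HMDP (Hybrid Mouse Diversity Panel), which joins classical inbred strains with recombinant inbred lines, with 67 libraries of females (titles ending in _F) and 74 of males (_M) from 82 strains. In 59 strains, called matched here, 1 female and 1 male library are present, so that the strain is the pair. The labels give no transgene and no drug. The name of the matched strain BXD24/TyJ-Cep290<rd16>/J states a mutant allele (rd16) of Cep290, a gene of the cilium. The name of BTBR T<+> tf/J, also a matched strain, states the alleles T<+> and tf. Every mouse was kept on chow until 8 weeks of age, then given a diet rich in fat and sucrose (HF/HS) for 8 weeks, and fasted for 4 h, so no comparison with another diet is possible.

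The strains fall into 5 families. Classical inbred strains gave 21 female and 23 male libraries, BXD lines (from C57BL/6J and DBA/2J) 32 and 34, AXB/BXA lines (from A/J and C57BL/6J) 9 and 11, BXH lines (from C57BL/6J and C3H/HeJ) 2 and 3, and CXB lines (from BALB/c and C57BL/6) 3 each. A strain and sex is represented by 1 library, so the spread within a strain and sex was not measured, and lines of a family share parental alleles.

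Complement is a cascade of plasma proteins that marks and kills microbes and clears dying cells. In the classical pathway C1q binds its target, the proteases C1r and C1s are activated, and C4 and C2 are cleaved to form an enzyme that cleaves C3. The terminal proteins C5 to C9 then assemble on membranes into the membrane attack complex, of which C6 and C7 are early components. The liver makes most circulating complement, but adipose tissue makes several components locally: adipocytes secrete factor D (adipsin, Cfd), tissue macrophages make C1q, and fibroblast-like cells make C1r, C1s and C3.

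Depth ranged from 6269154 to 78562648 estimated counts per library with a median of 30233245. Genes of the Y chromosome (Uty, Kdm5d, Ddx3y and Eif2s3y) went against the sex label in 3 libraries: all 4 genes in the library labelled male of NZW/LacJ and the library labelled female of BXD69/RwwJ, and 2 of the 4 in the library labelled female of BXD34/TyJ, which is also the shallowest. Only NZW/LacJ is a matched strain. Adipocyte markers were present in every library, with summed levels of Adipoq, Plin1, Plin4, Cidec, Fabp4 and Lipe from 3543 to 36100 CPM in females and from 8101 to 44343 CPM in males. The 9 mammary epithelial markers were all higher in females, with summed levels from 0.887 to 2197 CPM in females and from 0.287 to 483 CPM in males, the highest male value being that of the library labelled male of NZW/LacJ. The next highest male value, 331 CPM, came from PL/J. In bulk tissue, fewer cells of a type and less RNA per cell cannot be told apart.

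The members lie on 4 chromosomes of GRCm38, as annotated by GENCODE M21. C1qa (chr4:136895917-136898803), C1qc (chr4:136889804-136893065) and C1qb (chr4:136880129-136886187) are neighbours on the minus strand of chromosome 4. C1ra (chr6:124512405-124523443, plus strand) and C1s1 (chr6:124530345-124542359, minus strand) are neighbours on chromosome 6. C6 (chr15:4727175-4814967, plus strand) and C7 (chr15:4988762-5063740, minus strand) lie near each other on chromosome 15. C4b (chr17:34728380-34743882) and C2 (chr17:34862604-34898265) lie on the minus strand of chromosome 17 in the major histocompatibility complex, and C3 (chr17:57203970-57228136, minus strand) lies far from them on the same chromosome.

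Promoter entries of RefSeq (GRCm38.p6) were found for 7 of the 10 members; C1qa, C2 and C4b had none. The 250 bases before the start annotated by RefSeq are shown for C7 and its neighbour C6, which differed in their sex contrast. They are also shown for C1qb and C1qc, whose levels rose and fell together, and for C1s1, which had the lowest p of the members in the test of strain. RefSeq starts can differ from the GENCODE coordinates above. The windows of C1qc and C6, and the second window of C1s1 given below, run past the GENCODE start into the gene. Capitals mark matches on either strand to 4 short motifs: TATAAA (the TATA box core), GAGGAA (the core bound by PU.1 and other ETS factors), AGAACA (a steroid receptor half-site) and TTGCNNAA (a C/EBP core).
C7: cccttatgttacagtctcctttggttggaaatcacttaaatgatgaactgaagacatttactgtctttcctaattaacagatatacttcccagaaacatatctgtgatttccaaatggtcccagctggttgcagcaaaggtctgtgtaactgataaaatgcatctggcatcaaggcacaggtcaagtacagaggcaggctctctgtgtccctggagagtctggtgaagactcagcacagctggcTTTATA
C6: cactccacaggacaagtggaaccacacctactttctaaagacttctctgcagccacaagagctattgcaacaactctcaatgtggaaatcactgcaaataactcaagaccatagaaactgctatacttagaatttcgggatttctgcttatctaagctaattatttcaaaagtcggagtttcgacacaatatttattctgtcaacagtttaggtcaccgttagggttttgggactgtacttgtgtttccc
C1qb: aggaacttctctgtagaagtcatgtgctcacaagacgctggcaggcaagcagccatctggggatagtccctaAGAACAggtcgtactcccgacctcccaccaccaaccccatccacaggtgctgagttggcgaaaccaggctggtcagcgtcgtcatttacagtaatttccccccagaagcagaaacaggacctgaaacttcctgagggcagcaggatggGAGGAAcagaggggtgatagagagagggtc
C1qc: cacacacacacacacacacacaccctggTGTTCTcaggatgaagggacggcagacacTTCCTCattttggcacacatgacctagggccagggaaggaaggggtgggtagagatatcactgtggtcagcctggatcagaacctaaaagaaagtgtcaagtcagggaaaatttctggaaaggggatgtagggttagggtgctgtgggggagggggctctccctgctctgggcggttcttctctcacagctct
C1s1: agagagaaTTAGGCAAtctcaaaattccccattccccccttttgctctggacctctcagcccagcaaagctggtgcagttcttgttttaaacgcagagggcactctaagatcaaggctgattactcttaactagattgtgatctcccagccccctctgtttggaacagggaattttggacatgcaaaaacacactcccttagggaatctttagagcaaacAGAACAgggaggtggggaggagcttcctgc

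The C7 window (chr15:5063774-5064023, minus strand) held 1 TATAAA match, on the opposite strand and beginning 6 bases before the start, and the C6 window (chr15:4726960-4727209, plus strand) held none of the 4 motifs. C1qb (chr4:136886201-136886450, minus strand) held GAGGAA beginning 30 bases before its start and AGAACA at 178 bases, and C1qc (chr4:136892915-136893164, minus strand) held both in the opposite orientation, at 193 and 222 bases. C1s1 (chr6:124542360-124542609, minus strand) held AGAACA at 30 bases and TTGCNNAA at 242 bases; a second RefSeq entry of C1s1, with its window at chr6:124542322-124542571, held AGAACA at 68 bases and no TTGCNNAA. These letters are common: of 32851 promoter windows of the same length, 12.4% held TATAAA, 23.3% GAGGAA, 16.1% AGAACA and 9.56% TTGCNNAA. The matches are a description of the letters only.

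**Figure D1:**
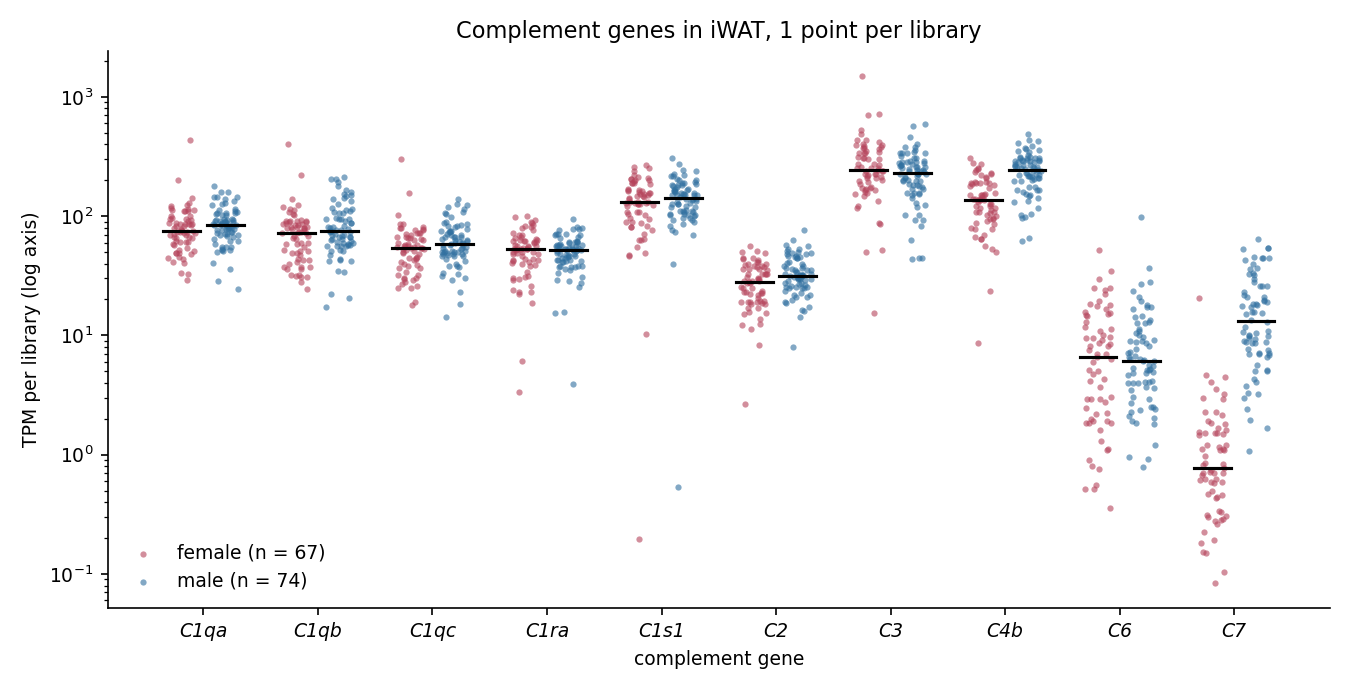
TPM of the 10 complement genes in each library on a log axis, females (n = 67) and males (n = 74) side by side, with a black bar at the median of each sex. The ranges of the sexes overlap for all 10 genes, least for C7, with a median of 0.776 TPM in females and 13.3 TPM in males.

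The genes spanned a wide range of levels, compared here as TPM, which accounts for transcript length. In females the order of the medians was C3 (245 TPM), C4b (135.8), C1s1 (131.3), C1qa (74.9), C1qb (71.7), C1qc (53.7), C1ra (52.5), C2 (28.3), C6 (6.53) and C7 (0.776). In males C4b came first (245 TPM), followed by C3 (229), C1s1 (141.7), C1qa (83.9), C1qb (75.2), C1qc (58.5), C1ra (51.6), C2 (31.8), C7 (13.3) and C6 (6.10). The sexes thus differed in which gene stood first and which last. Neighbours in this order were often interchangeable: C4b exceeded C1s1 in 34 of the 67 female libraries and C1qc exceeded C1ra in 37, and in males C4b exceeded C3 in 44 of 74. Other neighbours held their places, as C1qb, which exceeded C1qc in all 67 female and in 72 of 74 male libraries. C7 was the lowest of the 10 genes in 64 of 67 female and in 18 of 74 male libraries.

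The main question the design poses is whether females differ from males of the same strain. C7, a component that anchors the forming attack complex to the membrane, was far higher in males. Its TPM ranged from 0.0848 (BXD38/TyJ) through a median of 0.776 to 20.5 (BXD69/RwwJ) in libraries labelled female, and from 1.08 (NZW/LacJ) through 13.3 to 64.8 (BXD48/RwwJ) in libraries labelled male. The highest female and the lowest male value thus belong to the 2 libraries in which all 4 Y-linked genes went against the label. Without the 3 doubted libraries females ranged from 0.0848 to 4.67 TPM (n = 65) and males from 1.68 to 64.8 TPM (n = 73), and 64 of the 73 male libraries lay above every female library. Every female library held C7, the lowest with 5 estimated counts (DBA/2J), against 63 in the lowest male library (NZW/LacJ).

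Over the matched strains the mean of C7 was 2.01 ± 1.82 CPM in the female and 35.1 ± 29.3 CPM in the male libraries (± SD, n = 59 each), where CPM is the TMM-scaled count relative to the library total. It was higher in the male library in all 59 strains by CPM, and in 58 by TPM, NZW/LacJ being the exception. The log2FC, female vs. male, was -4.07 (SE 0.20), a 16.8-fold difference, with an adjusted p of 1.03e-25 (edgeR's quasi-likelihood test, adjusted over all 16765 genes tested). Counting C7 itself, 4 of the genes tested had a log2FC at least as far toward males. The difference in log2 CPM within a strain ran from -7.99 in BALB/cJ to -0.11 in NZW/LacJ, and averaged -4.25 in 20 classical inbred strains, -3.96 in 26 BXD lines and -3.85 in 9 AXB/BXA lines.

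The parents of the recombinant families, with BALB/cJ standing for the BALB/c parent of the CXB lines, showed the C7 contrast as well. C57BL/6J had 0.592 TPM in the female and 9.84 in the male, and DBA/2J had 0.103 and 9.58. A/J had 0.853 and 21.2, C3H/HeJ 0.579 and 26.03, and BALB/cJ 0.191 and 44.7. BALB/cJ joined a low female level to the highest male level of these 5 strains.

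**Figure D2:**
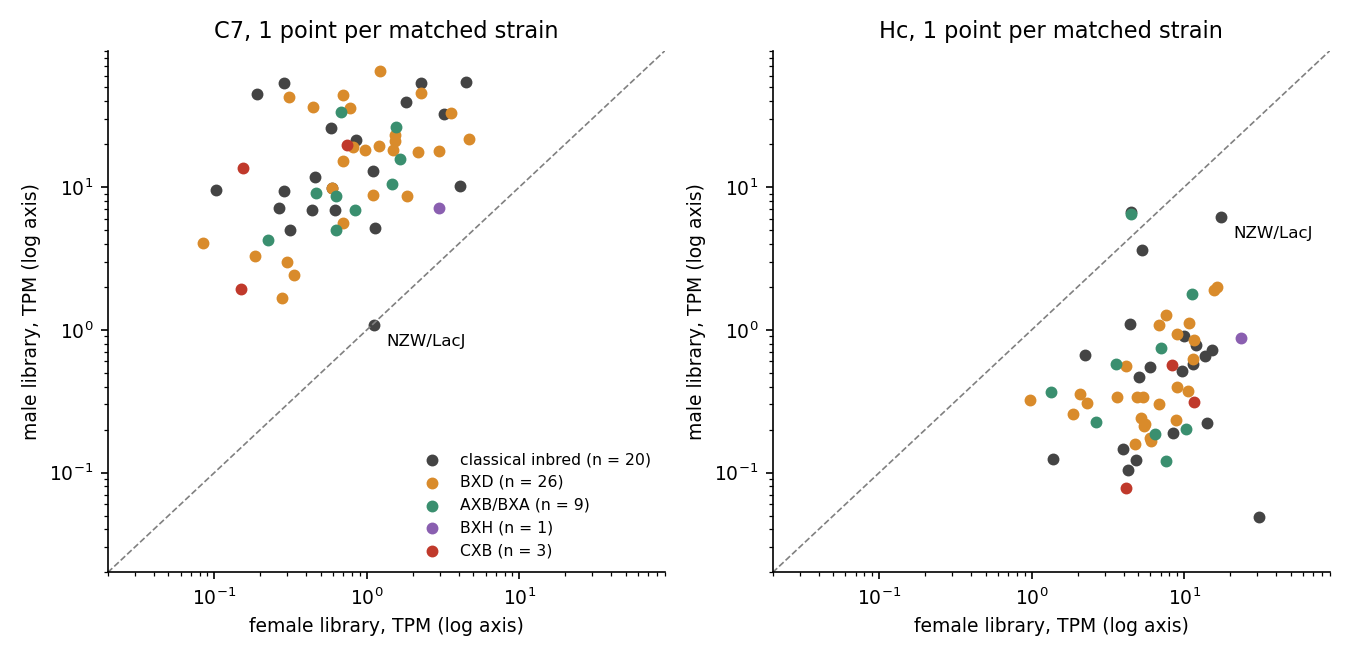
TPM in the male against the female library of each matched strain on log axes, coloured by family, for C7 and for Hc, which encodes C5; the dashed line marks equality. For C7, 58 of 59 strains lie above the line and NZW/LacJ lies below it, whereas for Hc 57 strains lie below it.

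C6, which joins the complex just before C7 and is encoded beside it, did not follow C7. Its TPM ran from 0.357 (FVB/NJ) through 6.53 to 52.5 (I/LnJ) in females and from 0.787 (SWR/J) through 6.10 to 98.5 (AKR/J) in males. The sexes overlapped almost fully. Its mean was 14.99 ± 15.9 CPM in females against 12.8 ± 10.2 in males (± SD, n = 59 each), 25 of 59 strains had the higher value in the female, and its log2FC of -0.16 (SE 0.23) did not pass the test (adjusted p = 0.559). The difference within a strain varied from -3.97 (BXD38/TyJ) to 4.54 (NZW/LacJ) in log2 CPM. The other protein-coding genes tested within 250000 bases of C7, viewed after the C7 result was known, had log2FC between -0.23 (Prkaa1) and 0.43 (Rpl37).

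Hc, which encodes C5, the protein that is split to begin the terminal steps, went in the opposite direction. It had 0.168 to 31.1 TPM in females (median 6.06, n = 67) and 0.0256 to 6.64 TPM in males (median 0.447, n = 74). The female library was above the male one in 57 of 59 strains, the exceptions being AXB5/PgnJ and MA/MyJ, and its log2FC was 3.60 (SE 0.21, adjusted p = 4.33e-23). Hc and C7 thus had the largest sex differences of the complement genes tested, with opposite signs. In females Hc rose with the mean log2 CPM of the mammary epithelial markers (Pearson's r = 0.57, rho = 0.49, n = 67), and without the 2 doubted female libraries r was 0.52 (n = 65). C7 had r of -0.41 and rho of -0.23 with these markers, and r of -0.18 without the doubted libraries, one of which, BXD69/RwwJ, held the least mammary signal of the females and the most C7. In males Hc had r of 0.39 with the mammary markers and 0.56 (rho = 0.30) with the hepatocyte markers Alb, Apoa1 and Ttr (n = 74). In females r with the hepatocyte markers was 0.01. The males of MA/MyJ and AXB5/PgnJ, the exceptions above, had the highest hepatocyte sums of the males, 2551 and 2123 CPM. The male median was 25.6 CPM. The part of mammary epithelial or hepatocyte cells in the Hc and C7 results was not tested. C8a, C8g and the other terminal genes were low, at most 1.89 TPM in the median of either sex of the matched strains, and neither C8a nor C8g passed for sex, while C8b and C9 were too low to be tested.

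The convertase components differed between the sexes in both directions. C4b encodes C4, which is cleaved by C1s, and was higher in males. Its TPM ran from 8.62 (BXD34/TyJ) through 135.8 to 310 (I/LnJ) in females and from 61.9 (CBA/J) through 245 to 486 (KK/HlJ) in males. The ranges overlapped, but within strains the male was higher in 56 of 59. Its mean was 419 ± 198 CPM in females against 821 ± 326 in males (± SD, n = 59 each), for a log2FC of -0.99 (SE 0.10, adjusted p = 3.24e-13). The 3 exceptions were AXB19b/PgnJ, BXH8/TyJ and NZW/LacJ, and by TPM the female was higher in 9 strains. All 6 adipocyte markers and all 4 endothelial markers were called higher in males as well, with median summed levels of 18722 CPM in females and 24912 in males for adipocytes and of 773 and 1108 CPM for endothelium. C4b correlated with the mean of the adipocyte markers at r of 0.33 in females and 0.26 in males and with that of the endothelial markers at 0.44 and 0.09. With the progenitor and fibroblast markers r was 0.44 in females and 0.37 in males. Of those markers 3 were called higher in females, 2 higher in males and 3 were not called. The part of any of these cells in the sex difference of C4b was not tested. The near copy C4a was not analysed here, and reads of the 2 genes can be split between them.

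C2, which supplies the protease of the classical convertase, ran from 2.65 (BXD34/TyJ) through 28.3 to 56.3 TPM (BXD6/TyJ) in females and from 8.05 (CXB11/HiAJ) through 31.8 to 76.5 (CXB13/HiAJ) in males. The groups overlapped widely, and the male was higher in 45 of 59 strains. Its log2FC was -0.39 (SE 0.08, adjusted p = 1.67e-05). Cfb, the alternative-pathway counterpart of C2 and its neighbour on chromosome 17, had a larger difference, with a log2FC of -0.85 (SE 0.09, adjusted p = 8.10e-12) and the male higher in 55 of 59 strains.

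C3, on which all pathways converge, was the only member that was called higher in females. It ran from 15.5 (BXD34/TyJ) through 245 to 1492 TPM (AXB12/PgnJ) in females and from 43.4 (BXD12/TyJ) through 229 to 597 (BXD85/RwwJ) in males. The overlap was nearly complete, with the female higher in 34 of 59 strains. Its mean was 887 ± 581 CPM in females against 739 ± 385 in males (± SD, n = 59 each), and its log2FC was 0.25 (SE 0.10, adjusted p = 0.0285). The call did not hold without the strain term (log2FC 0.28, adjusted p = 0.0841) or without the filter on low counts (adjusted p = 0.0645). In both sexes C3 fell as the adipocyte markers rose, with r of -0.64 in females and -0.40 in males, and rose with the B and T lymphocyte markers, with r of 0.54 and 0.42; their part in the sex difference was not tested.

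The chains of C1q, the recognition molecule, are encoded by C1qa, C1qb and C1qc. C1qa ran from 29.3 through 74.9 to 433 TPM in females and from 24.4 through 83.9 to 177 in males, C1qb from 24.6 through 71.7 to 403 and from 17.3 through 75.2 to 215, and C1qc from 17.9 through 53.7 to 302 and from 14.2 through 58.5 to 138.7. The highest female value of each came from AXB12/PgnJ and the lowest male value of each from BXD12/TyJ. C1qb (log2FC -0.25, SE 0.09, adjusted p = 0.0108) and C1qc (log2FC -0.22, SE 0.08, adjusted p = 0.0177) were called higher in males, and C1qa had a log2FC of -0.16 (SE 0.08, adjusted p = 0.0694). The male was higher in 41, 43 and 41 of 59 strains for C1qb, C1qc and C1qa. C1qa was called without the strain AXB12/PgnJ (log2FC -0.20, adjusted p = 0.0128) and without NZW/LacJ (adjusted p = 0.0311). With library totals in place of TMM, C1qb (adjusted p = 0.140) and C1qc (adjusted p = 0.236) were no longer called.

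Macrophage markers moved with the C1q genes. All 8 (Adgre1, Cd68, Csf1r, Mrc1, Cd163, Lyz2, Mpeg1 and Fcgr1) were called higher in males, none was at 0 in any library, and their summed level ran from 309 to 5829 CPM (median 843) in females and from 292 to 2862 CPM (median 1048) in males. C1qa, C1qb and C1qc correlated with the mean log2 CPM of these markers with r of 0.77, 0.77 and 0.84 over 67 female libraries and 0.78, 0.78 and 0.83 over 74 male libraries, given as a description. The part of macrophage number in the sex difference was not tested. In the female library of AXB12/PgnJ the macrophage sum was 5829 CPM and the lymphocyte sum 1132 CPM, the highest of all females, and the adipocyte sum of 3543 CPM was the lowest.

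C1ra and C1s1 encode the proteases C1r and C1s. C1ra ran from 3.36 through 52.5 to 101.1 TPM in females and from 3.95 through 51.6 to 94.5 in males, without a sex call (log2FC -0.05, SE 0.06, adjusted p = 0.437). C1s1 ran from 0.196 through 131.3 to 269 TPM in females and from 0.531 through 141.7 to 305 in males. It was slightly higher in males, in 40 of 59 strains (log2FC -0.20, SE 0.06, adjusted p = 0.00295), and this call was lost with library totals in place of TMM (log2FC -0.09, adjusted p = 0.15997).

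The lowest value of both genes, in both sexes, came from the same strain, CBA/J. C1s1 had 0.196 TPM (7.58 estimated counts) in the CBA/J female and 0.531 TPM (10.99 estimated counts) in the male. Over all other libraries it was never below 10.2 TPM in females, the value of the shallow BXD34/TyJ library, or below 39.9 TPM in males. C1ra in CBA/J was 3.36 TPM in the female and 3.95 TPM in the male, against lowest values elsewhere of 6.14 (again BXD34/TyJ) and 15.4. The remaining members were not at their lowest in the CBA/J female, and in the CBA/J male C4b was, at 61.9 TPM.

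The near copies of these genes on the same stretch of chromosome 6, C1rb and C1s2, were read beside them because reads can be split between copies. C1rb had 63.6 TPM in the CBA/J female and 47.3 TPM in the CBA/J male, while no other library exceeded 8.84 TPM in females or 8.52 TPM in males. The sum of C1ra and C1rb in CBA/J was 67.0 TPM in the female and 51.3 TPM in the male, within the range of the other libraries (6.14 to 110 TPM in females with a median of 54.3, and 15.4 to 94.5 TPM in males with a median of 53.3). C1rb made up 94.98% and 92.3% of that sum in CBA/J, and at most 16.2% elsewhere. The C1s pair showed no such exchange: C1s2 had 4.53 and 4.02 TPM in CBA/J, and C1s1 plus C1s2 came to 4.72 and 4.55 TPM, against medians of 139.3 in the other females and 149 in the other males. C1rl, just beside C1ra, had 11.7 and 11.3 TPM in CBA/J, above the median of 8.42 TPM of the other libraries, and of the 13 other genes tested within 250000 bases of C1s1, C1rl included, 6 were above their median in both CBA/J libraries, 3 below it in both (Ptpn6, Cd163 and Lrrc23) and 4 mixed. None of the 13 was below every other library in either CBA/J library. These values are assignments to a reference of another strain, C57BL/6J, and whether they follow from sequence differences in CBA/J was not tested.

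**Figure D3:**
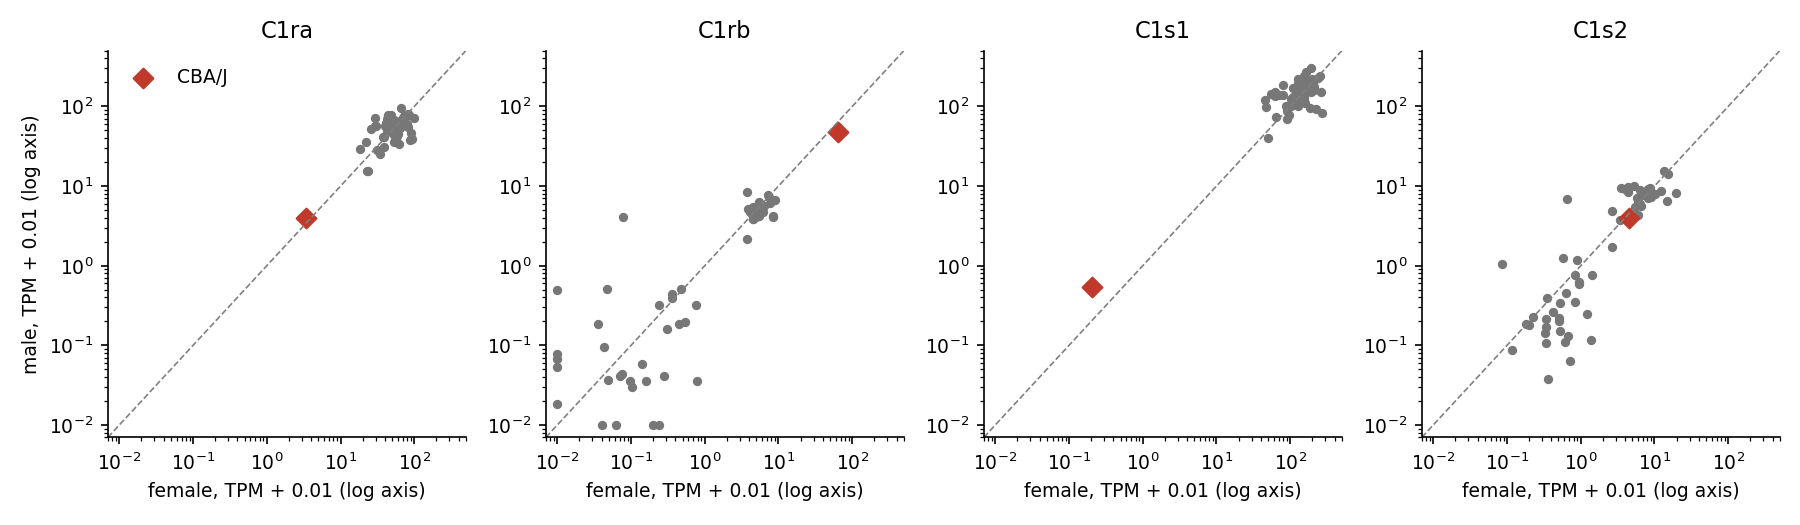
TPM plus 0.01 in the male against the female library of each matched strain on log axes for C1ra, C1rb, C1s1 and C1s2, with CBA/J as a red diamond and a dashed line of equality. CBA/J lies far below all other strains for C1ra and C1s1 and far above them for C1rb, while C1rb and C1s2 each fall into a low and a high cluster of strains.

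Apart from CBA/J, C1rb and C1s2 split most matched strains into a low and a high cluster that both sexes shared. With a limit of 1 TPM set after the values were seen, C1rb was below it in both sexes of 29 matched strains, at or above it in both sexes of 29, and mixed in 1. For C1s2 the counts were 23, 29 and 7. The strain mixed for C1rb was PL/J, with 0.0690 TPM in the female and 4.11 TPM in the male. Its C1s2 was 0.653 TPM in the female and 6.84 TPM in the male. Whether both PL/J libraries come from the strain on the label was not tested. In the BXD lines C1rb was below in both sexes of 13 and at or above it in both sexes of the other 13. The parents of this family differed in the same way: C57BL/6J had 0.187 and 0 TPM of C1rb and DBA/2J 4.58 and 4.50. C1s2 was 0.170 and 0.173 TPM in C57BL/6J and 3.94 and 9.20 TPM in DBA/2J. Neither gene was called for sex (C1rb log2FC 0.13, adjusted p = 0.583; C1s2 log2FC 0.22, adjusted p = 0.198).

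Of the 10 members, 6 were called higher in males (C1qb, C1qc, C1s1, C2, C4b and C7), 1 higher in females (C3) and 3 were not called (C1qa, C1ra and C6). Over all 16765 genes tested, 29.8% were called higher in males and 28.4% higher in females, 58.1% in all, so that a call by itself says little about the members. The median log2FC was -0.21 over the members and 0.01 over all genes tested. Library totals in place of TMM left 4 members called (C2, C4b and C7 higher in males and C3 higher in females), as did limma on log2(TPM + 1). Under library totals the median log2FC of all genes moved to 0.12. Of the 10158 calls over all genes, 27.5% were then higher in males. The share was 51.2% of 9747 calls with TMM and 35.01% of 8193 with limma on log2(TPM + 1). C4b, C2 and C7 were called higher in males under each of the alternatives run.

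Other genes of the pathway were counted from a list of 41, of which 40 were in the tables and 34 were tested. Of these, 13 were called higher in males, 3 higher in females and 18 were not called. Over all genes tested, 29.8% were called higher in males and 28.4% higher in females. The split of the 34 genes depended on the scaling, with 10 higher in males and 9 in females under library totals, and 11 and 5 with limma on either log2 TPM scale. Of the 9 receptors 7 were called higher in males: C3ar1 (log2FC -0.92, SE 0.15) and C5ar1 (-0.66, SE 0.12), which bind the fragments C3a and C5a, Vsig4 (-1.36, SE 0.26), Itgax (-0.81, SE 0.17), Itgb2 (-0.57, SE 0.16), Itgam (-0.51, SE 0.11) and Cd93 (-0.59, SE 0.09). Several of these are macrophage genes, and the macrophage markers were higher in males too, as given above. The part of these cells in the receptor calls was not tested. C5ar2 and Cr2 were not called, Cr2 with a log2FC of 0.91 and an SE of 0.62.

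Among the 11 regulators, Cd59a, which blocks the attack complex on host cells, was higher in males (log2FC -0.58, SE 0.11, adjusted p = 6.63e-06). Serping1 (-0.44) and Cr1l (-0.15) were called in the same direction, and Clu, which encodes clusterin, an inhibitor of the terminal complex, was higher in females (log2FC 1.26, SE 0.21, adjusted p = 9.98e-07). In the alternative pathway Cfd, adipsin, was the most abundant complement gene, with a median of 1871 TPM in females and 1628 TPM in males, and was not called (log2FC 0.16, SE 0.15, adjusted p = 0.358). Of the 8 initiation genes tested, Masp2, a protease of the lectin pathway, was higher in females (log2FC 0.50, SE 0.14, adjusted p = 0.00214), and C1rl and Colec12 were called higher in males.

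**Figure D4:**
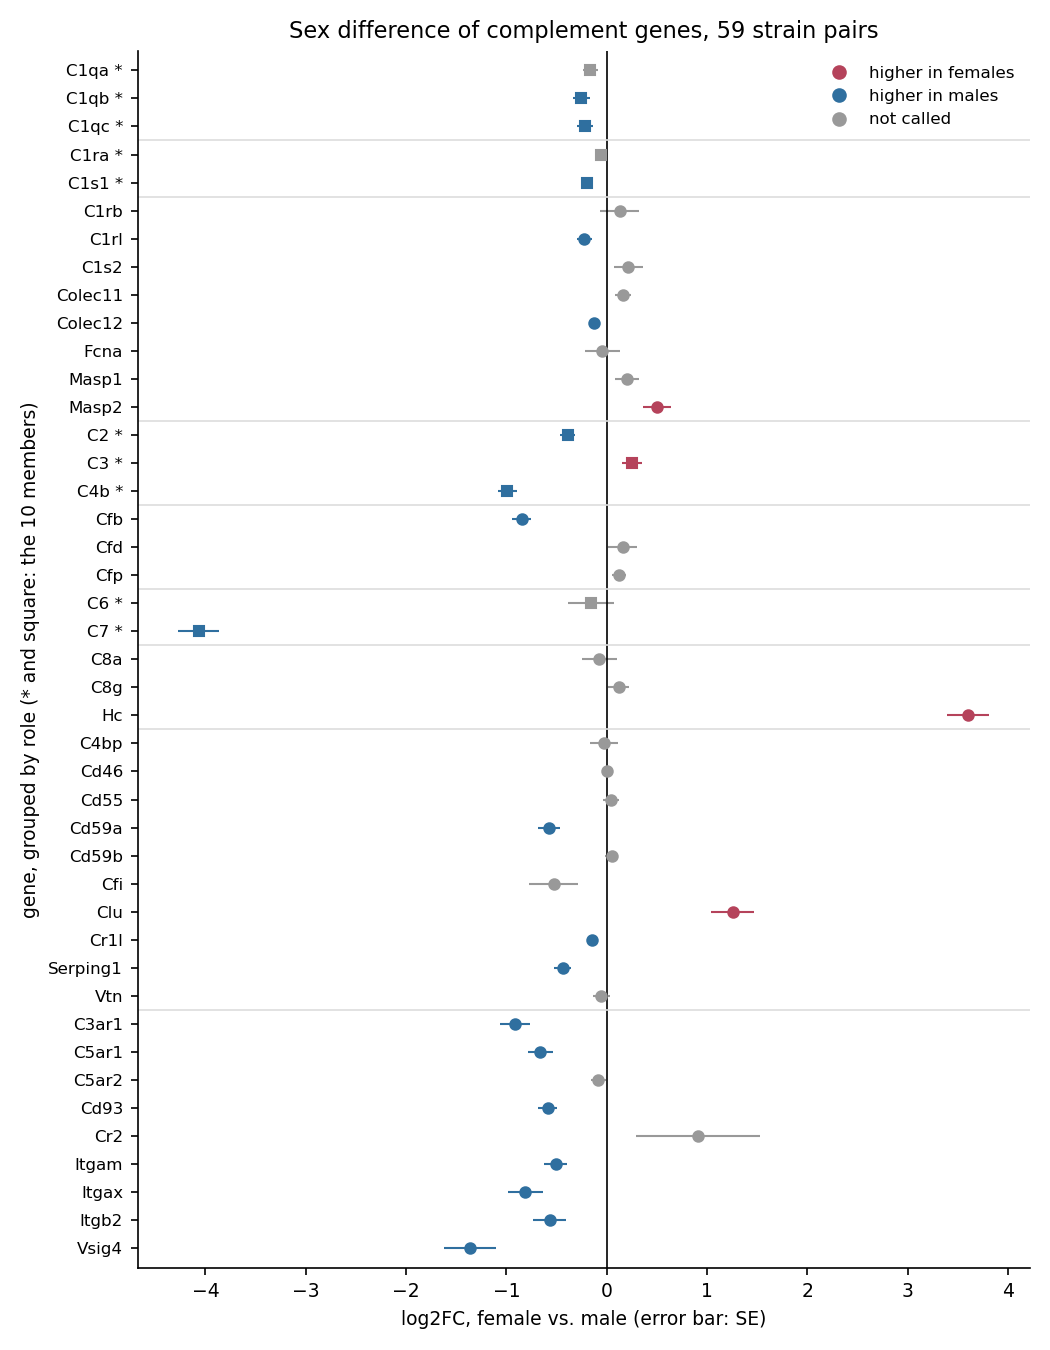
log2FC, female vs. male, with its SE for the 10 members (squares, asterisks) and the other complement genes tested (circles, 1 gene not shown), grouped by role; blue marks genes called higher in males, red genes called higher in females and grey genes not called. C7 at -4.07 and Hc at 3.60 lie far outside the remaining genes, which fall between -1.36 (Vsig4) and 1.26 (Clu).

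A second question is how far the members vary between strains in a way that both sexes share. All 10 members passed the F test of strain, with adjusted p from 2.04e-15 (C1s1) to 0.0186 (C6), but so did 71.2% of all genes tested. Without AXB12/PgnJ the test called 9 members, C1qa being lost, and without CBA/J it called all 10. The correlation between the female and the male log2 CPM of a strain, over 59 strains, had a median of 0.30 over all genes tested. C1s1 (r = 0.94, rho = 0.59, permutation p = 1e-05, the smallest that the resamples can give) and C1ra (r = 0.76, rho = 0.37, permutation p = 3.00e-05) had the highest r. Both rested in part on CBA/J, without which r was 0.54 for C1s1 and 0.39 for C1ra; without the 2 strains farthest from the female median, CBA/J and FVB/NJ, r was 0.52 for C1s1 and 0.35 for C1ra.

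The order of the remaining members depended on the measure. C4b had r = 0.49 (rho = 0.30, permutation p = 5.00e-05), and r was 0.32 without MA/MyJ and CBA/J. C3 had r = 0.46, C2 r = 0.42, C1qb r = 0.38 (rho = 0.44, and r = 0.55 without AXB12/PgnJ and DBA/2J, the highest of the members in that comparison), C7 r = 0.36 (permutation p = 0.00520) and C6 r = 0.27 (permutation p = 0.0404). C1qa (r = 0.17, permutation p = 0.205) and C1qc (r = 0.24, permutation p = 0.0636) did not pass, and the strain AXB12/PgnJ, with a high female and a middling male library, was among the 2 farthest for both; without the 2 farthest strains r was 0.23 for C1qa and 0.35 for C1qc. These 10 relations are given with raw p-values, each from a two-sided permutation test. For comparison, the r of C1rb was 0.89 and that of C1s2 was also 0.89.

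The spread between strains also differed among the members. In log2 CPM the SD over strains was large for C6 (1.62 in females and 1.11 in males) and C7 (1.25 and 1.30), and was 0.46 and 0.48 for C1qa. The SD of C1s1 (1.33 and 1.32) and C1ra (0.65 and 0.63) turned on CBA/J: without it they were 0.50 and 0.47 for C1s1 and 0.41 for C1ra in either sex, the smallest of the 10 members. The strains with the highest mean of both sexes were 129X1/SvJ (4.44 TPM in the female and 53.95 in the male), CE/J and KK/HlJ for C7, and KK/HlJ (34.8 and 17.9), CE/J and CXB11/HiAJ for C6. The lowest were BXD38/TyJ (0.0848 and 4.07), BXD56/RwwJ and BXD12/TyJ for C7, and FVB/NJ (0.357 and 3.62), SWR/J and AXB13/PgnJ for C6. KK/HlJ and CE/J thus stood among the 3 highest strains of both terminal genes.

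For the convertase genes, C4b was lowest in CBA/J (49.8 TPM in the female and 61.9 in the male), MA/MyJ (23.7 and 95.6) and C3H/HeJ (64.7 and 135.1), and highest in BXD60/RwwJ (253 and 429), I/LnJ and BXD79/RwwJ. C3 was highest in SJL/J (721 and 574), AXB12/PgnJ and SWR/J and lowest in CXB11/HiAJ (51.6 and 44.6), BXD12/TyJ and FVB/NJ. C2 was highest in CXB13/HiAJ, AXB12/PgnJ and BXD79/RwwJ and lowest in BXD84/RwwJ, BXD14/TyJ and CXB11/HiAJ. BXD12/TyJ was the lowest strain for each of the 3 C1q genes, with 40.6 and 24.4 TPM of C1qa, and BXD40/TyJ the next lowest. AXB12/PgnJ was among the 3 highest for each of them, joined by BXD86/RwwJ and C3H/HeJ for C1qa, by BXA8/PgnJ and BXD62/RwwJ for C1qb, and by BXD62/RwwJ and BXD86/RwwJ for C1qc. BXD12/TyJ and FVB/NJ came next to CBA/J at the low end of C1ra and C1s1; the high end was AXB12/PgnJ, AXB13/PgnJ and BXD48/RwwJ for C1ra, and KK/HlJ (191 and 305), BXD49/RwwJ and BXD79/RwwJ for C1s1.

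Few members differed between families. Among females 1 of 10 members, C1qb, was called for family (adjusted p = 0.0391), beside 4.39% of all genes tested, and among males none was, beside 9.09%. The median C1qb level in females was 59.3 TPM in classical inbred strains, 75.8 in BXD, 89.5 in AXB/BXA, 105.6 in the 2 BXH libraries and 49.4 in the 3 CXB libraries. The order did not recur in males, whose medians were 75.04, 77.7, 66.8, 94.5 and 69.1 TPM. The C1qb call was not made with library totals or on log2(TPM + 1). For C7 the family medians ran from 0.154 TPM (CXB) to 2.08 TPM (BXH) in females and from 3.74 TPM (BXH) to 17.7 TPM (BXD) in males, without a call (adjusted p = 0.435 and 0.182).

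The sex difference was also compared between the 26 BXD strains and the 33 other matched strains. None of the 10 members, and 0% of the genes tested, was called in edgeR's test of this interaction, in which 314 genes had an unadjusted p under 0.05 and none of them was a member. For C7 the mean difference in log2 CPM was -3.96 ± 1.28 (SD) in BXD and -4.14 ± 1.58 in the other strains, and the interaction was 0.16 (SE 0.38). For C4b the means were -0.95 ± 0.61 and -1.03 ± 0.85, with an interaction of 0.10 (SE 0.20).

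**Figure D5:**
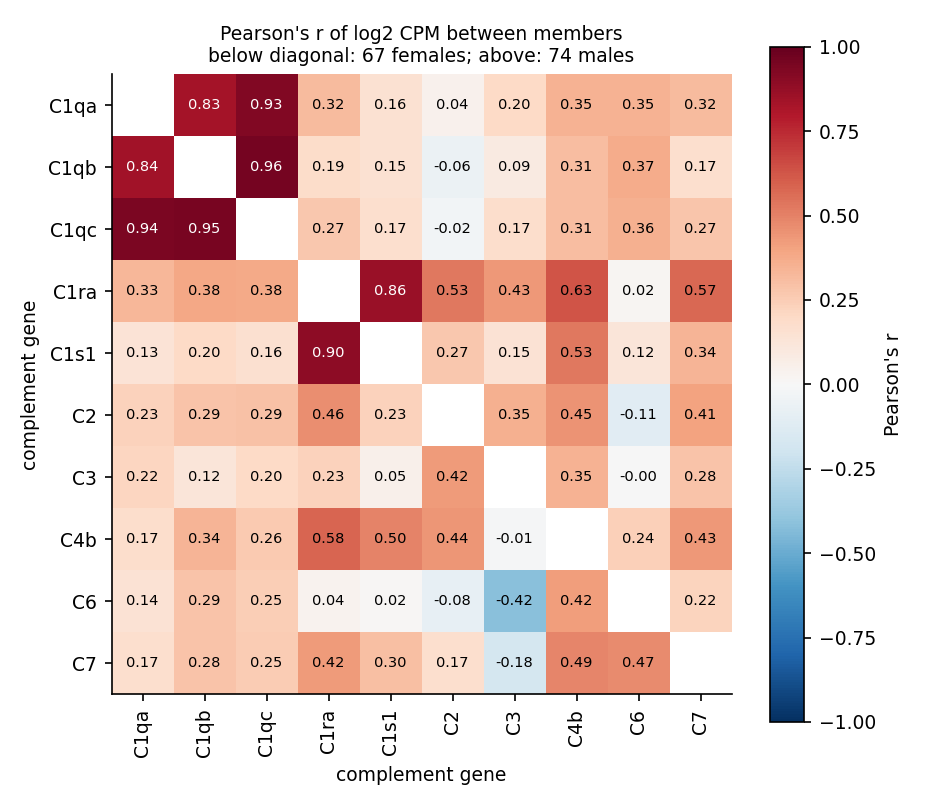
Pearson's r of log2 CPM between pairs of members over the 67 female libraries (below the diagonal) and over the 74 male libraries (above it), coloured from blue (-1) through white (0) to red (1). The 3 C1q genes form one block (0.83 to 0.96) and C1ra with C1s1 another (0.90 in females and 0.86 in males), while the remaining pairs are weaker.

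The closest pairs were chains of C1q and the pair of C1 proteases. Over libraries, within each sex, C1qb and C1qc had r of 0.95 in females and 0.96 in males, C1qa and C1qc 0.94 and 0.93, and C1ra and C1s1 0.90 and 0.86; for the last pair CBA/J and the shallow BXD34/TyJ library lie at the low end of both genes. C1q and its proteases were less alike, with r of 0.33 for C1qa and C1ra in females and 0.32 in males. Some pairs across steps of the cascade were closer than that: C4b correlated with C1ra at 0.58 and 0.63, with C1s1 at 0.50 and 0.53 and with C7 at 0.49 and 0.43, and C1ra with C7 at 0.42 and 0.57. C6 and C7 had r of 0.47 in females and 0.22 in males, and C3 and C6 had -0.42 in females and -0.0032 in males. These values describe libraries that share depth and cell composition, and no p is given for them.

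Outside the list, the genes most like each member were taken as the 3 with the highest r in log2 CPM over the libraries of both sexes together after the mean of each sex was subtracted. For the C1q genes Lrrc25 came first each time (0.82 for C1qa and C1qb and 0.86 for C1qc), followed by Fcer1g and Ninj1 for C1qa, Clec4a1 and Alox5ap for C1qb, and Fcer1g and Clec4a1 for C1qc. For C7 they were Ace (0.69), Gdf10 (0.68) and Slit3 (0.67), and C7 also rose with the mean of the progenitor and fibroblast markers, with r of 0.57 in females and 0.67 in males. For C6 they were Ret (0.77), Lpgat1 (0.73) and Pcolce2 (0.72). The C7 and C6 sets share no gene, but with only 3 genes taken per member this says little.

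C4b was most like Adamtsl4 (0.60), Serping1 (0.57), which encodes the inhibitor of C1r and C1s, and H2-D1 (0.56), another gene of the major histocompatibility complex. C2 was most like Apoe (0.62), Phyhd1 and Sntg2, and C3 most like Susd6 (0.71), Mybbp1a and Atxn2l. C1ra and C1s1 had Abi3bp first in both cases (0.58 and 0.57), followed by Fgl2 and Rnf216 for C1ra and by Dnajc28 and Tcea1 for C1s1.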

How the data were processed

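RNA from iWAT was sequenced as stranded 100 bp paired-end libraries, and the authors obtained estimated counts and TPM per gene with kallisto 0.46.1 (Ensembl 97, GRCm38) and tximport. Both deposited tables were used: estimated counts, rounded to whole numbers, for tests, and TPM, the authors' length-scaled values, for levels. Of the estimated counts 30.3% were not whole before rounding. Symbols were matched for 35856 of 36558 genes. No column was left unused for want of a label.

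Sex was tested in the 59 matched strains with edgeR 4.0.16 (TMM, filterByExpr, quasi-likelihood test, ~ Strain + Sex), with Benjamini-Hochberg adjustment over 16765 genes and a threshold of 0.05. The strain pairs the libraries. Strain, family within each sex and the interaction of sex with BXD were tested in the same way. CPM were TMM-scaled, with a prior count of 2 on the log2 scale. Correlations between the sexes used two-sided permutation tests with 100000 resamples. Alternatives were library totals, RLE size factors, no filter, DESeq2 1.42.0, limma 3.58.1 (voom, and log2(TPM + 1) or log2(TPM + 0.1)), mitochondrially encoded genes left out, no strain term, and strains left out; leaving out CBA/J or AXB12/PgnJ, and the marker correlations without the doubted libraries, were added after seeing the data. The paired test of sex was tried on simulated counts.

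All members were named, together with other complement genes past the threshold with an absolute log2FC of at least 0.5, a few named in any case (Cfd, Cfb, Hc, C1rb, C1s2), and the 3 genes most like each member. Remaining genes were named after their values were seen. The members and lists were chosen with earlier results of these data known. C4a was not analysed here, and 1 gene counted among the regulators is not reported by name. A count of 3, the least taken as detected, corresponds to 0.0992 CPM at the median depth and 0.479 CPM at the lowest. The study's methods speak of several samples for some strains and sexes, whereas each has 1 library here; whether a library pools mice is not given in the sources used here, and p-values measure the spread between these libraries.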

Additional observations from a re-analysis of the deposited data

Results flagged for a closer look

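In the group of 9 AXB/BXA females, 4 of the 10 members had their highest library far from the rest by Dixon's test on log2(TPM + 0.1), and all 4 came from AXB12/PgnJ. C1qa was 433 TPM there, with the next library at 100 TPM. C1qb was 403 TPM, with the next at 102.6 TPM, and C1qc was 302 TPM, with the next at 69.1 TPM. C3 was 1492 TPM, with the next at 384 TPM. This was the one group of a size at which the test is made, chance sets apart about 1 in 20 such groups, and the 3 C1q genes vary together, so the 4 values are not independent. In the same library the summed macrophage markers were 5829 CPM and the lymphocyte markers 1132 CPM, the highest of the 67 female libraries, and the adipocyte markers were 3543 CPM, the lowest. The part of these cells in the 4 values was not tested.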

How the results depend on the processing

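Of the 10 members, 7 were called for sex. This fell to 4 with library totals, limma on log2(TPM + 1) or limma on log2(TPM + 0.1) (C2, C3, C4b and C7), and to 4 with no replicate block, that is without the strain that pairs the libraries, in the matched strains or in all libraries (C1qb, C2, C4b and C7). It was between 6 and 8 in the remaining settings. Over all 16765 genes tested, 9747 were called with TMM and 10158 with library totals. On log2(TPM + 1) 8193 were called and on log2(TPM + 0.1) 8247. The cause of the drop among the members was not tested. The log2FC of C7 ran from -4.12 to -2.88, of C4b from -1.02 to -0.76, of C2 from -0.43 to -0.26 and of C3 from 0.22 to 0.36, while C6 ran from -0.22 to 0.24 and C1ra from -0.08 to 0.05, without a call in any setting. The family call of C1qb in females was lost, leaving 0, with library totals and both TPM scales. The correlation between the sexes passed for C1qa (0.31) and C1qc (0.36) on log2(TPM + 1), and for C1qc (0.35) without the 2 farthest strains. The share of all calls that were higher in males was 51.2% with TMM, 27.5% with library totals, 35.01% and 34.6% on the TPM scales and 57.1% without mitochondrially encoded genes. With 1 library per strain and sex, a difference in a single strain has no replicate. The shallowest library, BXD34/TyJ female, limits values near the floor, and it was the lowest female for 5 of the 10 members. Its C1s1 and C1ra values rested on 327 and 200 estimated counts, far above the 3 taken as detected. Its summed mesothelial markers (Msln, Upk3b, Lrrn4 and Wt1) were the highest of the females, 85.1 CPM against a median of 2.02. Why its values were low was not tested.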
